A study of Mus musculus with 4 samples.

Results

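The collagen hydroxylases P4ha1, P4ha2, Plod1 and Plod3 were followed in mouse embryonic stem (ES) cells, the pluripotent cells of the early embryo. They are 4 of the 6025 genes named on a mouse cDNA microarray of 9480 probes, and each had 1 probe. The genes were chosen from ratios already seen on these same arrays, so their values are given as a description and without a test. A further lysyl hydroxylase, Plod2, shared its 1 listed probe with another gene and was left out by the rule that a probe must name a single gene.

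Each of the 4 arrays compared a FosB mutant with wild type on 2 colours, with 2 arrays per mutant in opposite dye orientations. FosB is a serum-inducible subunit of the transcription factor AP-1. The fosBd/d line carries homozygous alleles that make only ΔFosB, the truncated form, and the fosB-null line is named as lacking the gene's product. Per the series title, the cells were kept for 72 h without serum and then had serum for 4 h, and RNA was taken from cells without feeder cells. Replicate 1 of each mutant had the mutant RNA in Cy3, and replicate 2 had it in Cy5. The labels do not say how many clones stand for each genotype, or whether the arrays of a swap used separate cultures, so the SD over 2 arrays may be technical.

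Collagen chains are modified in the endoplasmic reticulum before they fold into a triple helix. Prolyl 4-hydroxylase turns prolines into hydroxyproline, which keeps the helix stable at body temperature, and P4ha1 and P4ha2 are among its catalytic subunits. Lysyl hydroxylases turn lysines into hydroxylysine, which carries sugars and anchors crosslinks between chains. Both kinds of enzyme use iron, oxygen, ascorbate and 2-oxoglutarate. Early extraembryonic endoderm, a lineage that ES cells can form, secretes large amounts of collagen IV for its basement membrane.

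The regions before the gene starts are shown as a description. The 4 genes lay on the same side of 0 as each other on each array, but these values chose them. Shared control of the genes was not tested. Sequences are from RefSeq (build GRCm38.p6) and give the 250 bases before the annotated start, 5′ to 3′ on the gene's strand. Capitals mark ACGTG or GCGTG on either strand, the core of the hypoxia response element.
P4ha1, chr10:59323046-59323295, plus strand: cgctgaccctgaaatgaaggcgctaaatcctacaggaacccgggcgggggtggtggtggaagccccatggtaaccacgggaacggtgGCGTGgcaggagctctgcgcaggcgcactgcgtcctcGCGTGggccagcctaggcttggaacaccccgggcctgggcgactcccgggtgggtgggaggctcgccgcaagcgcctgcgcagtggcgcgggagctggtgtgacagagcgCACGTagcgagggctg
P4ha2, chr11:54100674-54100923, plus strand: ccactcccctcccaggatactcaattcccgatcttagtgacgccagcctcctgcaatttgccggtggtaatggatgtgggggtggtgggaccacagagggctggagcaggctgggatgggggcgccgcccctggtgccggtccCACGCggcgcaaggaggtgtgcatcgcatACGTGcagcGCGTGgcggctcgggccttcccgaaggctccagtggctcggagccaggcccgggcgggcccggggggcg
Plod1, chr4:147936777-147937026, minus strand: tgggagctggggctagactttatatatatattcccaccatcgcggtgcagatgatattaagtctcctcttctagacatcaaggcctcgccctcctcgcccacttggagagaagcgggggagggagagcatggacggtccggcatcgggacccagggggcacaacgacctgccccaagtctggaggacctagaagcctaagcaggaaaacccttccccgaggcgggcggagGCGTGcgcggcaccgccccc
Plod3, chr5:136986769-136987018, plus strand: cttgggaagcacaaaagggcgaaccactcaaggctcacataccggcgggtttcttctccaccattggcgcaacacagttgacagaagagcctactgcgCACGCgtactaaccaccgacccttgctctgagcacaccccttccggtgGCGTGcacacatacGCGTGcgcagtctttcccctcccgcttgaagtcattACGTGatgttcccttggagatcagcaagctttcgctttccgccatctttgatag

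The hypoxia core had 3 matches in the P4ha1 window, 3 in P4ha2, 1 in Plod1 and 4 in Plod3. Of all 32851 such windows in the table, 38.6% held at least 1 match, so a match in itself is common. ACGTG alone was found in the windows of P4ha1, P4ha2 and Plod3, against 16.6% of all windows, and in P4ha1 it lay 16 to 12 bases before the start. The letters TGANTCA, which AP-1 binds, were in none of the 4 windows and in 6.75% of all windows. The windows were rich in G and C, with 69.6% for P4ha1, 70.0% for P4ha2, 61.6% for Plod1 and 55.6% for Plod3, beside a median of 52.4%. They held 24, 21, 16 and 17 CpG pairs in that order, against a median of 6, and the hypoxia core itself contains a CpG.

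Ratios are given on the log2 scale, where 1 is 2-fold. The direction of the deposited ratios was not settled by the labels. Exact zeros carried a minus sign on fosBd/d replicate 1 and fosB-null replicate 2, as multiplication by -1 leaves, so these columns appear to have been turned. Over all probes, the replicate 1 arrays of both mutants, labelled alike, correlated at r = -0.46, and the replicate 2 arrays at r = -0.37. Arrays of one swap also ran against each other, at r = -0.12 for fosBd/d and -0.32 for fosB-null. When the 2 turned columns were turned back, each of the 6 array pairs had a positive r, from 0.12 to 0.46. The part in these ratios of a signal that follows the dye was not tested, and the fit carried a dye term coded by the columns that appear turned. Read through the dye names as Cy5 over Cy3, a positive fosBd/d ratio stands for more RNA in the mutant, and this fosBd/d direction is called likely here. The Cy5-over-Cy3 reading makes a positive fosB-null ratio less RNA in the mutant, while a mutant-over-wild-type rule for every array makes it more. The labels also name Cy3 red and Cy5 green, which would turn the fosBd/d reading. The fosB-null ratios are therefore given with their deposited sign, without a call of higher or lower in the mutant.

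In fosBd/d cells, all 4 hydroxylases lay on the positive side on both arrays, likely higher in the mutant. Their 8 values ran from 0.84 to 2.03, and their means from 1.05 to 1.93. Among all probes, 21.7% were above 0 on both fosBd/d arrays. P4ha1, P4ha2 and Plod1 were at least 2-fold on both arrays and Plod3 on 1, where 1.24% of all probes reached 2-fold on the positive side of both. These values chose the genes, so nothing is read from the counts.

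**Figure D1:**
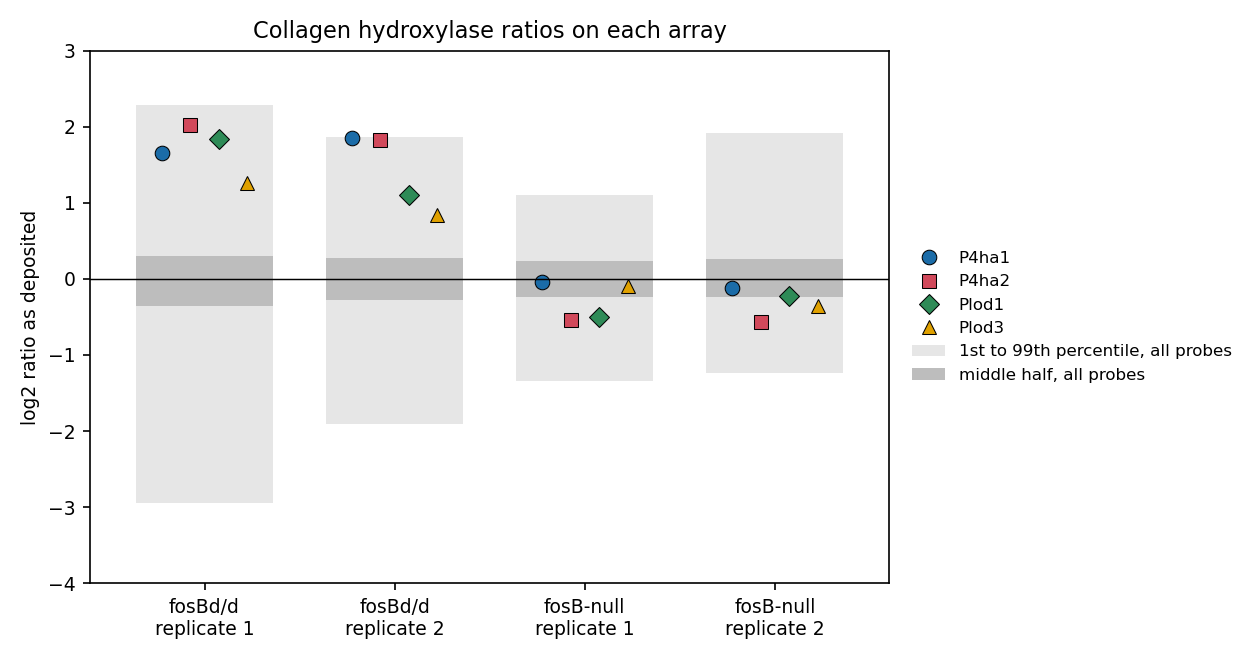
Log2 ratios as deposited (vertical axis) of the 4 hydroxylases on each of the 4 arrays, drawn over the 1st to 99th percentile and the interquartile range of all probes. On both fosBd/d arrays the 4 genes lie between 0.84 and 2.03, and on both fosB-null arrays between -0.57 and -0.05.

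P4ha2, a catalytic subunit of prolyl 4-hydroxylase, had ratios of 2.03 on fosBd/d replicate 1 and 1.83 on replicate 2. The mean was 1.93 ± 0.14 (SD, n = 2 arrays), or 3.81-fold, and it ranked 23 from the top among the means of 9480 probes. P4ha2 was the highest of the 4 genes on replicate 1, and within 0.02 of P4ha1 on replicate 2.

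P4ha1, the catalytic subunit of the enzyme's main form in most tissues, stood at 1.65 and 1.85 on the same arrays. Its mean of 1.75 ± 0.14 (SD, n = 2 arrays) is 3.37-fold and ranked 35. The ratios of the subunits could not be put in order, since P4ha1 lay 0.37 below P4ha2 on replicate 1 and 0.02 above it on replicate 2.

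Plod1, the lysyl hydroxylase that acts on the helical part of fibrillar collagens, had 1.84 on replicate 1 and 1.10 on replicate 2. The mean was 1.47 ± 0.52 (SD, n = 2 arrays), which is 2.77-fold, at rank 74. This was the widest gap between arrays among the 4 genes, and Plod1 lay above P4ha1 on replicate 1 and below it on replicate 2.

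Plod3, a lysyl hydroxylase that also attaches the sugars of hydroxylysine and is needed for collagen IV to be secreted, had 1.26 and 0.84. Its mean of 1.05 ± 0.29 (SD, n = 2 arrays) is 2.07-fold, at rank 183. Plod3 was the lowest of the 4 on both arrays, 0.58 and 0.26 below Plod1 and 0.77 and 0.99 below P4ha2.

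The arrays of the fosBd/d swap differed by a median of 0.46 over all probes. The gap was 0.19 for P4ha1 and 0.20 for P4ha2, and 23.5% and 24.0% of probes had a smaller one. For Plod3 the gap was 0.42, close to that median, and for Plod1 it was 0.74, with 67.8% of probes below it. The prolyl hydroxylase subunits thus had smaller gaps than most probes, and Plod1 a larger one. Values of both arrays were known when the genes were chosen, so nothing is read from these gaps.

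**Figure D2:**
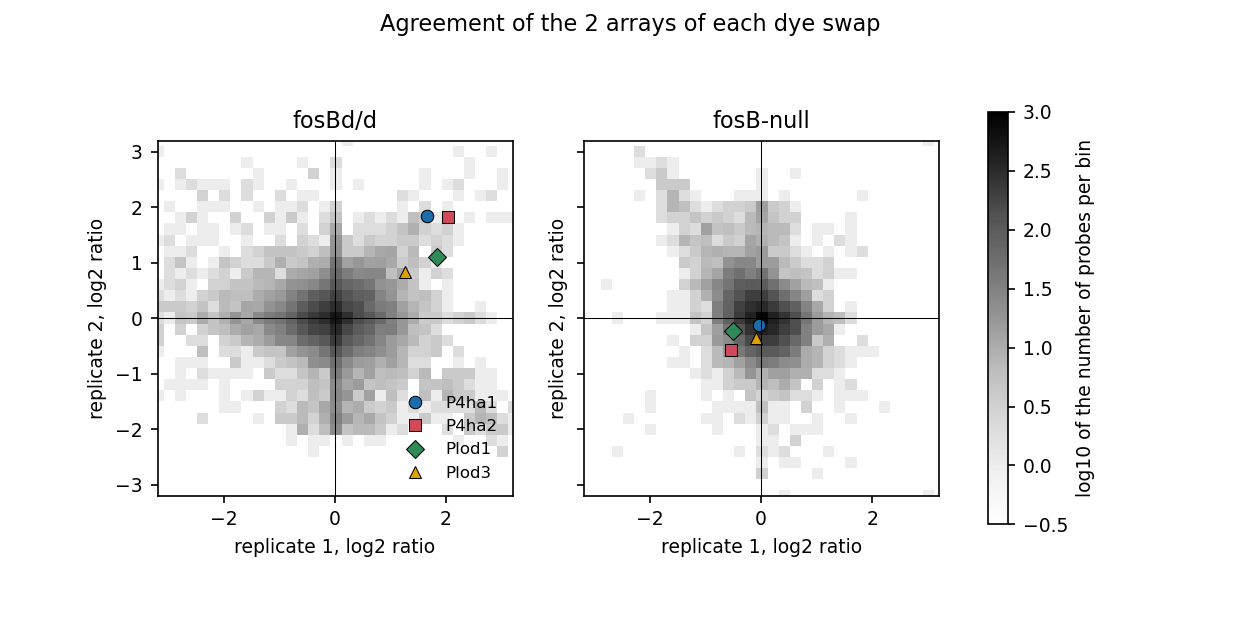
Number of probes per bin (grey, log10 scale) by the log2 ratio on replicate 1 (horizontal) and replicate 2 (vertical) of each mutant, with the 4 hydroxylases as coloured marks. The axes stop at 3.2, beyond which 77 fosBd/d and 5 fosB-null probes are not drawn, and the 4 genes lie in the upper right for fosBd/d and in the lower left, near the centre, for fosB-null.

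In fosB-null cells, where the direction has no settled reading, the 4 hydroxylases lay on the negative side on both arrays. Read as Cy5 over Cy3, this side stands for more RNA in the mutant, and by the mutant-over-wild-type rule for less. Their 8 values ran from -0.57 to -0.05, so none reached 2-fold. Below 0 on both arrays were 19.0% of all probes, and 8 probes (0.0844%) were 2-fold on the negative side of both. A further 15 probes (0.158%) were 2-fold on the positive side. These arrays were also known when the genes were chosen.

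P4ha2 lay farthest from 0 of the 4 in fosB-null, at -0.54 and -0.57 on replicates 1 and 2, with a mean of -0.55 ± 0.02 (SD, n = 2 arrays). That is a 1.47-fold ratio, and 2.28% of probes had a lower mean as deposited. P4ha1, by contrast, stood at -0.05 and -0.12, mean -0.08 ± 0.05 (SD, n = 2 arrays), with 32.8% of probes lower as deposited. As deposited, P4ha1 lay above P4ha2 by 0.49 and 0.45, and with the sign turned it would lie below P4ha2 by as much. The order of their mutant to wild-type ratios is therefore not settled. Ratios of different probes do not say which subunit has more RNA.

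Plod1 had -0.50 and -0.22 in fosB-null, mean -0.36 ± 0.20 (SD, n = 2 arrays). Plod3 had -0.10 and -0.35, mean -0.22 ± 0.18 (SD, n = 2 arrays). As deposited, Plod1 was the lower of these on replicate 1 and the higher on replicate 2, so the lysyl hydroxylases did not differ beyond their spread. The mean of Plod1 had 6.29% of probes below it and that of Plod3 15%.

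Both mutants were set against wild type, so their difference can be taken through it, but the wild-type RNA may have been shared. As deposited, fosBd/d lay above fosB-null by 2.48 ± 0.10 (SE, from the array spread in both mutants) in P4ha2. The difference was 1.83 ± 0.10 in P4ha1, 1.83 ± 0.39 in Plod1 and 1.27 ± 0.24 in Plod3. With the fosB-null sign turned, the differences were 1.38 for P4ha2, 1.67 for P4ha1, 1.11 for Plod1 and 0.83 for Plod3, all with fosBd/d higher. The turned sign goes with the Cy5-over-Cy3 reading, and the deposited sign with the mutant-over-wild-type rule. Only the fosBd/d direction, on which these readings agree, was called likely above, and neither fosB-null sign is preferred. P4ha2 was first of the 4 as deposited and P4ha1 first with the sign turned. If the colour words hold in place of the dye names, the fosBd/d ratios turn and each of these differences takes the other sign. Probes above 0 on both fosBd/d arrays and below 0 on both fosB-null arrays made up 6.50% of all, and the 4 genes were among them.

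**Figure D3:**
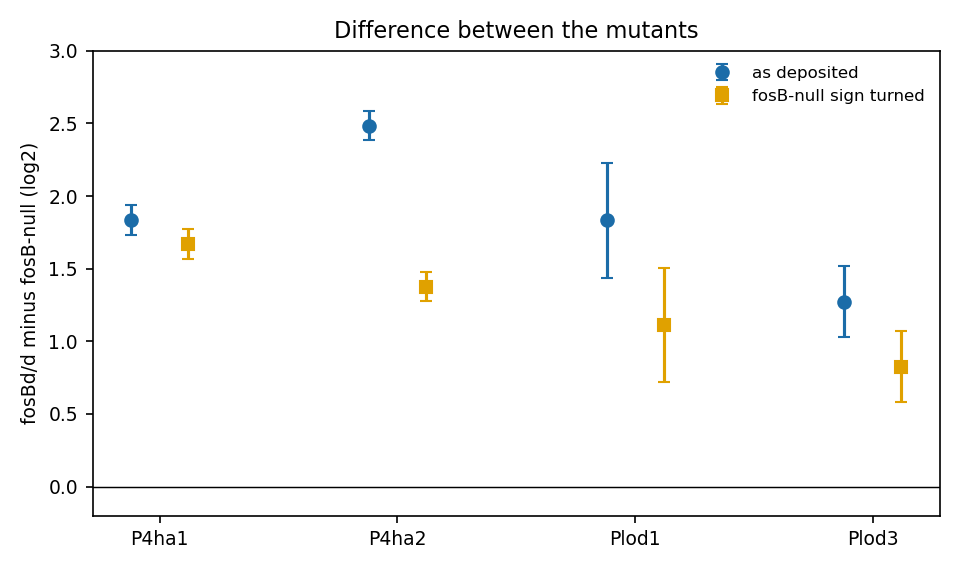
Difference between the mutants (fosBd/d minus fosB-null, log2, vertical axis) for each hydroxylase, with bars of 1 SE, taken from the 2 arrays of either mutant. As deposited the points lie between 1.27 and 2.48, and with the fosB-null sign turned between 0.83 and 1.67.

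The limma fit over all probes gives the background for single genes. At an adjusted p under 0.05 it called 0 of 9480 probes (0%) in fosBd/d, in fosB-null and between the mutants with either sign. At an unadjusted p under 0.05, the counts were 1503, 578, 1320 as deposited and 865 with the sign turned. The smallest adjusted p was 0.297 in fosBd/d and 0.651 in fosB-null. No gene of the lists below therefore passed, and they are described by their values, by counts and by medians, beside a median of -0.02 in fosBd/d and 0.00 in fosB-null over all 6025 genes. Of all genes, 25% were positive and 24.2% negative on both fosBd/d arrays, and 19.5% and 21.9% on both fosB-null arrays. The lists were chosen with earlier results of these data known, so their counts beside these shares are a description.

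The closest working partner of the prolyl hydroxylase subunits is P4hb, protein disulfide isomerase, which joins them in the active enzyme. P4hb stood at 1.53 and 0.99 in fosBd/d, mean 1.26 ± 0.38 (SD, n = 2 arrays) or 2.39-fold, and at -0.58 and 0.03 in fosB-null. Crtap and Colgalt2 were named after their values were seen. Crtap, a partner of prolyl 3-hydroxylation, had 0.40 and 1.06 in fosBd/d. P3h3, of the prolyl 3-hydroxylase family, lay on the other side with -0.68 and -0.23, and was negative on both fosB-null arrays too, at -0.51 and -0.22. Colgalt2, which adds galactose to hydroxylysine, disagreed between arrays, with 1.63 and -0.91 in fosBd/d and -0.76 and 1.51 in fosB-null. These 4 were the measured members of an 11-gene list of other hydroxylases and partners, with medians of 0.55 in fosBd/d (0.96 on replicate 1 alone) and -0.12 in fosB-null (-0.55 on replicate 1 alone).

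The substrates of these enzymes are the collagen chains. The collagen IV chains Col4a1 and Col4a2, the scaffold of basement membranes, stood at 2.48 ± 0.25 and 2.57 ± 0.56 (SD, n = 2 arrays) in fosBd/d, above each hydroxylase, and Col4a5 was at 0.58 ± 0.16. In fosB-null the 3 chains had means of -0.34, -0.19 and -0.62. The 14 other collagens measured had a fosBd/d median of 0.02 (array medians -0.07 and 0.05), and 3 lay above 0 and 4 below it on both arrays, near the shares of all genes. Their highest mean was Col9a1, at 0.67 ± 0.95 (0.00 and 1.34), and their lowest Col9a2, a cartilage collagen, at -1.26 ± 0.70 (SD, n = 2 arrays). The fibrillar chains Col1a1 and Col1a2, named after their values were seen, differed between the fosBd/d arrays, with -0.46 and 0.61 for Col1a1 and -0.06 and 0.55 for Col1a2. In fosB-null they were both negative, at -0.78 ± 0.05 and -0.73 ± 0.05 (SD, n = 2 arrays).

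Genes that fold collagen and carry it out of the endoplasmic reticulum lay mostly on the positive side in fosBd/d. Of 13 measured, 10 were positive and 1 negative on both arrays, with a median of 0.30 (array medians 0.18 and 0.39). Creb3l1, a transcription factor of the secretory pathway that drives collagen genes in bone, was highest at 1.03 ± 0.24 (0.86 and 1.20), and lay at -0.50 ± 0.42 in fosB-null. Mia3, the export receptor for collagen, was lowest at -0.28 ± 0.39 (SD, n = 2 arrays). In fosB-null the median was -0.11, and 6 of the 13 stayed below 0 while 1 stayed above it on both arrays.

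Among 9 chaperones and disulfide enzymes of the endoplasmic reticulum, 7 were positive and 0 negative on both fosBd/d arrays, with a median of 0.58. Dnajc3, a cochaperone, was highest at 0.96 ± 0.22 and Dnajb9 lowest at -0.13 ± 0.44 (SD, n = 2 arrays). Named after their values were seen, the chaperones Hspa5 (1.08 and 0.83), Calr (0.72 and 0.51) and Hsp90b1 (0.53 and 0.64) stood below each hydroxylase mean. In fosB-null the median was 0.01, with 1 positive and 1 negative on both arrays.

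Outside the cell, 6 genes that cut or crosslink collagen were measured, 4 positive and 1 negative on both fosBd/d arrays, with a median of 0.23 (array medians 0.35 and 0.12). Pxdn, the peroxidase that crosslinks collagen IV, was 2-fold on both arrays, at 1.26 and 1.42, mean 1.34 ± 0.11 (SD, n = 2 arrays). Loxl1, a lysyl oxidase that acts on elastin, stood at -1.06 and -0.45. In fosB-null Pxdn had -0.12 and -0.31 and Loxl1 -0.49 and -0.09, and the list's median was -0.15 (array medians 0.02 and -0.05).

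**Figure D4:**
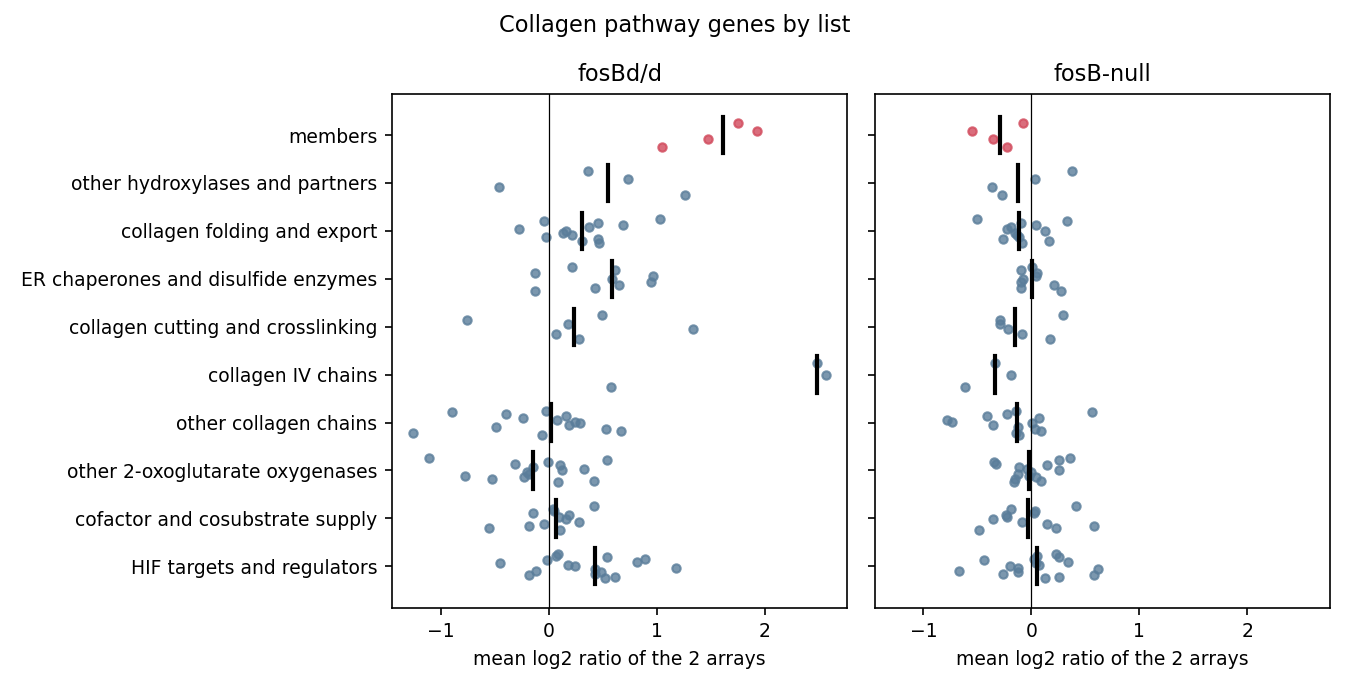
Mean log2 ratio of the 2 arrays (horizontal axis) for each measured gene, by list, in fosBd/d (left) and fosB-null (right). Red points are the 4 hydroxylases, blue points the genes of each list and black bars the list medians, which in fosBd/d are 1.61 for the hydroxylases, 2.48 for collagen IV chains and between -0.14 and 0.58 for the rest.

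Other genes of the 2-oxoglutarate oxygenase family were near the shares of all genes. Of 15 listed family members measured, 4 were positive and 4 negative on both fosBd/d arrays, with a median of -0.14 (array medians -0.20 and 0.08). Egln1, which hydroxylates the hypoxia factor HIF, was highest at 0.54 ± 0.15. Alkbh1, a nucleic acid demethylase, was 2-fold on the negative side of both arrays, at -1.02 and -1.19, as were 0.338% of all probes. P4htm, a membrane-bound prolyl hydroxylase named after its values were seen, had 0.00 and -0.45. In fosB-null the list's median was -0.02.

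Genes that supply ascorbate, iron and 2-oxoglutarate were measured for 12 of 22 listed, at a fosBd/d median of 0.07, and 4 lay above 0 and 3 below it on both arrays. Their highest mean was Fth1, the iron store, at 0.42 ± 0.45, and their lowest Slc39a14, a metal importer, at -0.55 ± 0.66 (SD, n = 2 arrays), whose 2 probes had means of -0.33 and -0.78. The ascorbate transporter Slc23a2, named after its values were seen, stood at -0.20 and 0.11. In fosB-null the median was -0.03, with 4 positive and 4 negative on both arrays. Slc2a1, the glucose transporter, also named after its values were seen, was at 0.55 and 0.60, on the side opposite to the hydroxylases there.

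P4ha1, P4ha2 and Plod1 are known targets of HIF, so HIF targets and regulators were described as well. Of 17 measured, 8 were positive and 2 negative on both fosBd/d arrays, with a median of 0.43 (0.19 on replicate 1 alone), below each of the 4 hydroxylases. Ndrg1, a stress-induced gene, was 2-fold on both arrays (1.31 and 1.05, mean 1.18 ± 0.19), while Igfbp3 was lowest at -0.45 ± 0.49 (SD, n = 2 arrays). Named after their values were seen, Pgk1 of glycolysis stood at 0.50 and 0.36, and the angiogenic factor Vegfa, over its 2 probes, at 1.42 and -0.37. Epas1 (1.13 and 0.66) and Hmox1 (0.60 and 1.05), also named after their values were seen, were positive on both fosBd/d arrays. Slc2a1, in this list too, was negative on both, at -0.24 and -0.12. In fosB-null the median was 0.06, with 4 positive and 5 negative on both arrays.

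The genes of most like pattern were those with the smallest Euclidean distance over the 4 log2 ratios, among 6025 genes. For P4ha1 they were Krt8 (distance 0.18), a keratin of simple epithelia, then Lhfpl2 (0.29), the DNA methyltransferase Dnmt3b (0.31), Foxa2 (0.33), an endoderm transcription factor, and Gm13597 (0.40). For P4ha2 they were Snai1 (0.39), a transcription factor of epithelial-mesenchymal transition, the laminin chain Lama1 (0.46), Cryab (0.47), clusterin Clu (0.51) and the cyclin Ccnd2 (0.52). For Plod1 they were Plscr3 (0.34), the actin-severing gelsolin Gsn (0.35), Ehhadh (0.36), P4hb (0.42) and Tmbim1 (0.47). For Plod3 they were the ligand Wnt5b (0.22), Ndrg1 (0.26), Pcgf5 (0.28), Zfp36l1 (0.29) and the sulfate transporter Slc26a2 (0.32). Within the 4 hydroxylases the closest were P4ha1 and P4ha2, at 0.76, yet 26 other genes lay closer to P4ha1 and 14 closer to P4ha2. Plod1 and Plod3 were 0.77 apart, with 19 genes closer to Plod1 and 136 closer to Plod3. These distances rest on 4 values per gene.

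Most extraembryonic endoderm markers lay on the same side as the hydroxylases in fosBd/d. Of 30 extraembryonic endoderm genes listed, 23 were measured, and in fosBd/d 19 were positive and 0 negative on both arrays, with a median of 1.52. Of these, 16 were at 2-fold on both, where 1.53% of all genes were 2-fold on the positive side. The marker lists were chosen with earlier results of these data known, so these counts are a description and not a test. Sox17 (2.83 and -1.95), Plat (1.94 and -0.06), Afp (1.05 and -0.29) and Apoa1 (0.73 and 0.00) did not keep 1 side. Col4a1 and Col4a2 are in this list, as are Foxa2, Snai1 and Lama1 from the genes of like pattern. Genes of like pattern were picked for nearness to a hydroxylase on these arrays, which largely fixes their side. In fosB-null 6 were positive and 10 negative, with a median of -0.15. There 2 markers, Cited1 and Ctsh, were 2-fold on the positive side of both arrays and 1, Thbd, on the negative side. Of 8 pluripotency genes measured, 2 were positive and 3 negative on both fosBd/d arrays (median -0.16, array medians -0.46 and 0.13), and 1 and 5 in fosB-null (-0.28). Of 14 fibroblast genes, 6 were positive and 4 negative in fosBd/d (median 0.09), and 0 and 5 in fosB-null (-0.22). The core pluripotency genes Pou5f1, Nanog and Sox2 were not analysed here. Ratios give no level, so whether a marker was absent from either RNA was not measured. The part of endoderm-like cells in the hydroxylase ratios was not tested, and in bulk RNA more cells of a type and more RNA per cell cannot be told apart.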

How the data were processed

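RNA of 2 mutant ES lines was hybridised against wild type on 4 two-colour Agilent cDNA arrays. The deposited values are 1 log10 ratio per probe and array, made with Agilent Feature Extraction per the submitters' processing notes. The log base rests on that software's definition, and the sources used here give no version, background correction or dye normalization. Column medians were 0. Ratios were multiplied by the log2 of 10, so every fold rests on that base. The number of arrays limits the precision.

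Probes were named from a 2007 platform table, with symbols updated through RefSeq by gene identifier (6496 of 6566 1-gene probes matched). All 9480 probes were fitted in limma 3.58.1 (R 4.3.3), two-sided, with Benjamini-Hochberg adjustment over all probes. The fit had 1 coefficient for each mutant plus 1 for dye, leaving 1 residual degree of freedom. The dye coefficient was coded by the columns that appear turned, not by the labelled dye of the mutant RNA. The p-values and the counts from them rest on that mark. The step was tested on simulated data with noise far smaller than the spread between these arrays. That run checks the code and gives no error rate or power for these data. Members, lists and rules were chosen with earlier results of these data known. Named from each pathway list were genes that passed 2-fold on 1 side in both arrays of either mutant, and the genes of highest and lowest fosBd/d mean. Marker lists are given by counts and medians. Others are marked as named after their values were seen. The members' 5 nearest genes were named by distance. Alternatives were no dye term, scaled arrays, zeros as missing, 1-gene probes, each array left out, another fold threshold, median centring and a turned sign.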

Additional observations from a re-analysis of the deposited data

Results flagged for a closer look

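Of the genes described, 25 lay on one side on both fosBd/d arrays and on the other side on both fosB-null arrays. Over all probes, 6.50% were above 0 on both fosBd/d arrays and below 0 on both fosB-null arrays, and the other direction was not counted. Many of the 25 were chosen by these values, so nothing is read from their number. As deposited, fosBd/d minus fosB-null was 1.83 for P4ha1, 2.48 for P4ha2, 1.83 for Plod1 and 1.27 for Plod3. Among genes of the pathway lists it was 2.82 for Col4a1, 1.19 for Col4a5, 1.53 for Creb3l1, 1.31 for Ndrg1, 1.55 for Pxdn, 0.66 for Hsp90b1, 0.70 for Pgk1, -0.76 for Slc2a1 and -0.78 for Slc39a14. Among the genes of like pattern, picked for their nearness to a hydroxylase on these arrays, it was 2.86 for Clu, 2.57 for Lama1, 2.29 for Cryab, 2.25 for Ccnd2, 2.15 for Gsn, 2.12 for Snai1, 2.10 for Gm13597, 2.06 for Ehhadh, 1.81 for Plscr3, 1.66 for Dnmt3b, 1.64 for Tmbim1 and 1.31 for Slc26a2, which their choice largely fixes. For the 4 hydroxylases the difference was not tested, because their values chose them. For the other genes limma called 0 of 9480 probes between the mutants. With the fosB-null sign turned, none of these 25 genes would lie on opposite sides, and in the pathway lists the differences would be 2.15 for Col4a1, -0.04 for Col4a5, 0.53 for Creb3l1, 1.05 for Ndrg1, 1.12 for Pxdn, 0.50 for Hsp90b1, 0.16 for Pgk1, 0.40 for Slc2a1 and -0.33 for Slc39a14.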

How the results depend on the processing

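Over the alternatives run, the 4 hydroxylases kept their sign in each mutant with either array alone and with scaled arrays. Scaling divides by a positive number and cannot change a sign, and the signs on single arrays were known when the genes were chosen. Nothing is read from the kept signs. With arrays scaled to the same median absolute deviation, P4ha1 and P4ha2 moved by more than 1 SD in fosBd/d, to 1.57 and 1.71, and P4ha2 in fosB-null, to -0.62. With the fosB-null sign turned, the differences between mutants moved to 1.67 (P4ha1), 1.38 (P4ha2), 1.11 (Plod1) and 0.83 (Plod3). At 1.5-fold in place of 2-fold, 314 probes were positive and 131 negative on both fosBd/d arrays, and 55 and 48 on both fosB-null arrays, against 118, 32, 15 and 8. Scaling gave 92, 22, 19 and 11. Limma called 0 probes in every fit, which with so few degrees of freedom says nothing about stability. The fosBd/d count at an unadjusted p under 0.05, 1503 in the fit reported, was 709 with no dye term, 813 without fosBd/d replicate 1, 973 without replicate 2 and 351 without either fosB-null array. Of 54 list medians recomputed, 7 changed sign, all with 1 array left out and all from a main median between -0.15 and 0.07. Setting the array medians to 0 changed nothing, since they were 0. Each hydroxylase had 1 probe, so no comparison of probes could be run. Fits without an array had no dye term. No paired analysis was possible because the labels number no replicates, and the dye term, coded by the turned columns, already separates the arrays of each mutant.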
